A study of Mus musculus with 11 samples.

Results

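The lysosomal gene set described here held 41 genes, all found by symbol among the 55385 genes of the deposited table and all among the 15416 genes that passed a filter on low counts. They comprised 7 cathepsins, 11 other hydrolases and lumenal cofactors, 7 membrane proteins, 14 proton pump genes and the transcription factors Tfeb and Tfe3. Expression was measured by RNA sequencing of mouse gastrocnemius, a calf muscle, in 11 libraries that each pooled 2 mice. All groups had fasted for 36 h, so none shows the fed state. ZEB1 controls (2 libraries, numbered 2 and 3) had the genotype ZEB1 flx/flx, and ZEB2 controls (3 libraries) ZEB2 flx/flx. ZEB1 and ZEB2 knockouts (3 libraries each) carried the same floxed alleles with HSA-Cre, a recombinase under the skeletal actin promoter, which acts in myofibres and leaves the gene intact in other cells of the muscle. No group had HSA-Cre without floxed alleles, so presence of Cre and loss of the ZEB gene cannot be told apart. The ZEB proteins are zinc-finger factors that bind E2-box sequences of DNA, and the series compared each knockout with the control of its line. The labels give no age and do not say whether pools came from separate litters or cages, so a p-value here reflects variation between pools and may be partly technical.

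Lysosomes break down proteins, glycans, lipids and glycogen that reach them by autophagy or endocytosis. Soluble hydrolases work in an acidic lumen that the vacuolar ATPase (V-ATPase) maintains by pumping protons, with a membrane sector, V0, that conducts protons and a cytosolic sector, V1, that splits ATP. During fasting, TFEB and TFE3 enter the nucleus and activate lysosomal genes through E-box sequences of the CLEAR type, and in muscle the lysosome is one of the routes by which protein is lost.

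Total counts ran from 27.3 M to 46.3 M per library, of which the 41 genes took 0.386% to 0.663%, and myofibre markers summed to between 114100 and 151000 CPM, the count relative to the TMM-scaled library size. Zeb1 measured 41.2 and 51.1 CPM in ZEB1 controls compared with 28.4, 28.6 and 30.4 CPM in ZEB1 knockouts. Zeb2 measured 24.1, 23.1 and 25.8 CPM in ZEB2 controls compared with 18.3, 14.4 and 17.6 CPM in ZEB2 knockouts. Both targeted genes were lower in every knockout library of their line, although neither difference passed edgeR's quasi-likelihood test with Benjamini-Hochberg adjustment (adjusted p = 0.8 and 0.0775). Zeb1 was higher in every ZEB2 knockout, at 67.2, 60.2 and 76 CPM compared with 47.7, 52.1 and 43.7 CPM in ZEB2 controls. Its log2 fold change there was 0.50 (SE 0.135, adjusted p = 0.0787 by edgeR), while that of Zeb2 in the ZEB1 line was 0.07. Counts over a whole gene take in exons that a deletion leaves in place and RNA from cells that lack Cre. Libraries also differed within groups. On the first principal component, which held 42.8% of the variance, ZEB2 knockout 3 lay at 81.5 while ZEB1 control 2, ZEB2 control 3 and ZEB1 knockout 2 lay at -58.2, -48.7 and -44.9. The pools also differed in 4 Y-linked genes, whose summed level was 0 and 163 CPM in ZEB1 controls, 0, 0 and 210 CPM in ZEB1 knockouts, 118, 250 and 0 CPM in ZEB2 controls and 216, 256 and 378 CPM in ZEB2 knockouts. Y-linked RNA comes from males, so the pools differed in the sex of the mice, which the labels do not give. The part of sex in the differences below was not tested beyond a fit with the Y-linked level as a covariate.

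Promoter sequence was examined because CLEAR-type E-boxes mark lysosomal genes. RefSeq start sites (GRCm38.p6, from 250 bases before to 50 bases after each start) were at hand for 35 of the 41 genes. The E-box core TCACGTGA, searched on both strands, lay in the promoters of 7 of these 35 genes (20.0%) against 1.12% of 27025 genes, and its inner part CACGTG in 13 (37.1%) against 8.09%. The longer CLEAR element, the core with G before it and C after it, was in 0 of the 35 and in 0.37% of all genes. The E2-box letters CACCTG, the type of sequence that ZEB factors bind, were in 8 (22.9%), close to the 22.6% of all genes. Promoters were also at hand for 80 of the other lysosomal genes listed further below. Of these, 11.2% held TCACGTGA, 26.2% CACGTG, 2.5% the longer CLEAR element and 25.0% CACCTG. A match describes letters only and shows no binding. One window of 30 bases is given for each of the 7 genes with TCACGTGA and, with CACGTG, for Gaa, Ctsl and Lamp1, whose levels are described below. Each is written 5′ to 3′ on the strand of the gene, and capitals mark the motif.
Ctsa (chr2:164833749-164833778, plus strand): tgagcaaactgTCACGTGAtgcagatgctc
Ctsd (chr7:142387908-142387937, minus strand): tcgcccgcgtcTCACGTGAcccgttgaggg
Gla (chrX:134601182-134601211, minus strand): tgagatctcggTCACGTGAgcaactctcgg
Mcoln1 (chr8:3500462-3500491, plus strand): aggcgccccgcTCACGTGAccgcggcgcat
Atp6v0d1 (chr8:105566050-105566079, minus strand): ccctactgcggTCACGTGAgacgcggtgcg
Atp6v0e (chr17:26676387-26676416, plus strand): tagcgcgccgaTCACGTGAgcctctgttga
Atp6v1a (chr16:44139373-44139402, minus strand): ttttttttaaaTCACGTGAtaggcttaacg
Gaa (chr11:119267811-119267840, plus strand): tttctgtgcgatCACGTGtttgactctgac
Ctsl (chr13:64370739-64370768, minus strand): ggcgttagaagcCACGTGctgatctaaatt
Lamp1 (chr8:13159134-13159163, plus strand): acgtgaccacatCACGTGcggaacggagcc

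In Atp6v0d1 and Atp6v0e, both of the membrane sector of the pump, the core began 4 bases before and 3 bases after the start site. It began 99 bases before the start in Ctsd and 46 bases before it in Mcoln1. Lamp1 held CACGTG 4 times between 61 and 15 bases before its start, more often than any of the other 12 genes with that motif. For the 7 genes with TCACGTGA the ZEB2 log2 fold changes had a median of 0.284 (5 higher, 2 lower in knockouts), and for the 28 genes without it 0.23. For the 8 genes with CACCTG the median was 0.378 (6 higher, 2 lower) and for the 27 without it 0.217 (17 higher, 10 lower). Of these 8 genes 4 were proton pump genes, a class whose own median was 0.378, so motif and class overlap. Neither group holds the 6 genes without a promoter entry, whose values ran from -0.13 for Ctsb to 1.68 for Npc1. Whether the motifs have a part in these differences was not tested.

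Levels between genes were compared per length, as CPM per kb of exon averaged over the 11 libraries. Exon lengths and the gene coordinates below are those of GENCODE M21 on GRCm38. Each length merges all annotated exons of a gene, 6044 bases for Atp6v1a and 1135 for Atp6v1g1. It can exceed the length of the transcripts expressed, which lowers the value per kb. Ctsd, the aspartic protease of the lysosome, was the highest at 359 CPM per kb, followed by Psap, the precursor of the saposins that help lipid hydrolases, at 215 CPM per kb and Lamp1, a main glycoprotein of the lysosomal membrane, at 152 CPM per kb. Among pump genes Atp6v1g1, a subunit of the stalk of V1, was the highest at 127 CPM per kb, whereas Atp6v1a, the catalytic subunit, stood at 4.44 CPM per kb. Manba, which removes mannose from glycans, and Gla, which removes galactose from glycolipids, were the lowest at 0.614 and 0.572 CPM per kb.

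**Figure D1:**
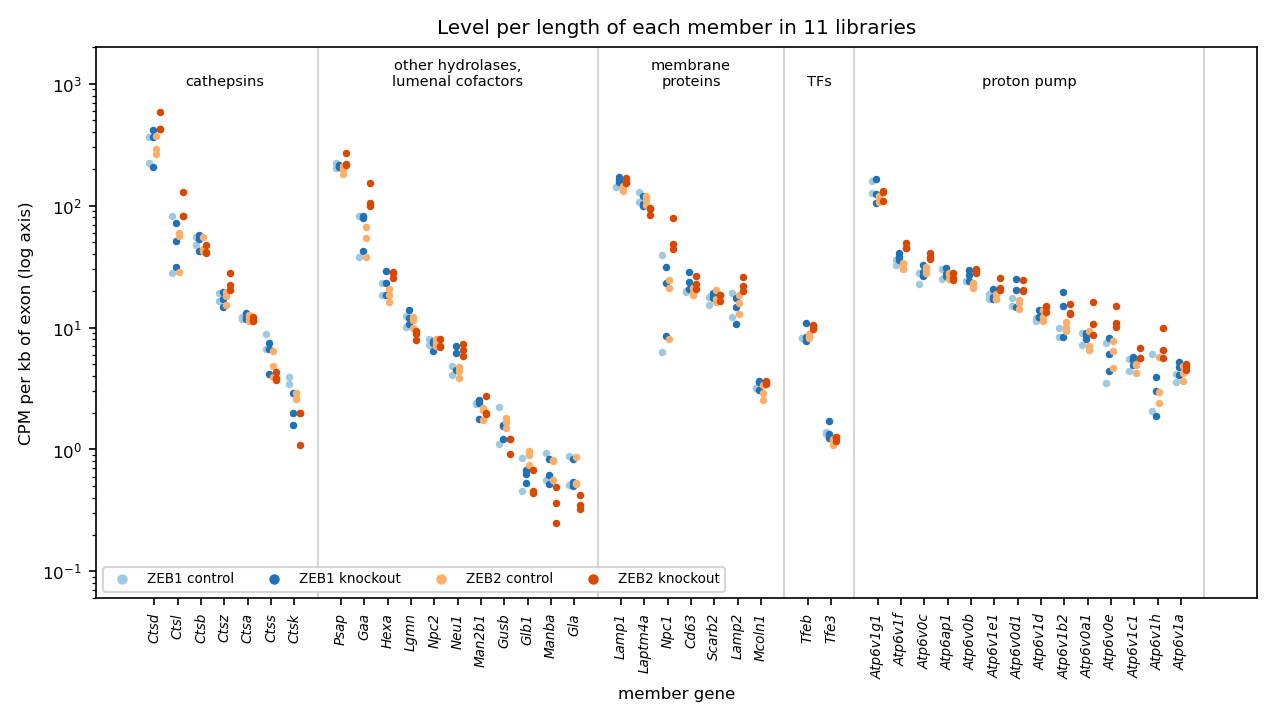
Level of each of the 41 genes in every library, in CPM per kb of exon on a log axis, grouped by class (TFs are the transcription factors) and coloured by group. Ctsd and Psap lie at the top, Manba and Gla at the bottom, and the points of Npc1 and Atp6v1h spread widely within groups.

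Most of the 41 genes varied less between libraries of a group than the median gene tested, while 15 of the 41 varied more. Their pooled within-group SD of log2 CPM had a median of 0.201, against 0.29 over all genes tested, and it was lowest for Lamp1 at 0.0654. Genes were not matched by level in this comparison. Npc1, the membrane protein that exports cholesterol from the lysosome, was the exception above the 90th percentile, with an SD of 1.02. Next came Atp6v1h, a regulatory subunit of V1, at 0.653, Ctsl at 0.646 and Gaa at 0.509. These genes were low in the same libraries. ZEB1 control 2, ZEB1 knockout 2 and ZEB2 control 3 held the lowest Npc1, Atp6v1h, Ctsl and Gaa of their groups. All of these libraries had a summed Y-linked level of 0 CPM. That level was also 0 CPM in ZEB1 knockout 1, which held the highest Npc1, Ctsl and Gaa of its group. ZEB2 control 3 was the lowest of its group for 26 of the 41 genes, against 32.2% of all genes, and ZEB2 knockout 3 the highest of its group for 24, against 42.1% of all genes.

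**Figure D2:**
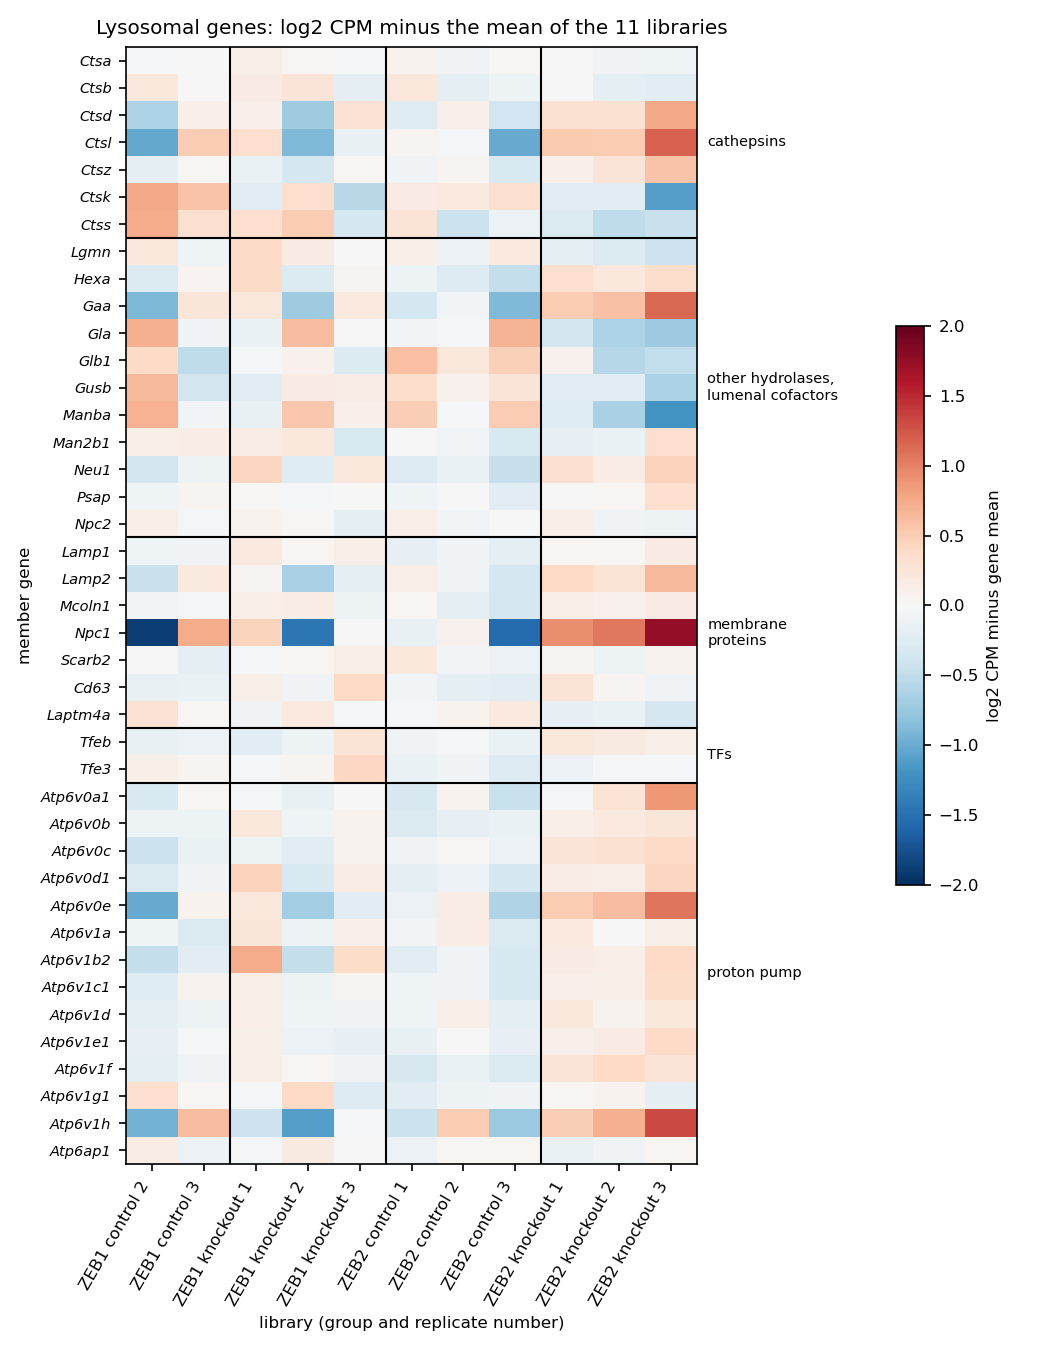
Log2 CPM of each gene in each library, minus the mean of that gene over the 11 libraries, from blue (lower) to red (higher). Npc1, Ctsl, Gaa, Atp6v0e and Atp6v1h are blue in ZEB1 control 2, ZEB1 knockout 2 and ZEB2 control 3 and red in the ZEB2 knockouts.

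ZEB2 knockouts had higher levels of most pump genes, of the cathepsins Ctsl, Ctsd and Ctsz and of the hydrolases Gaa, Hexa and Neu1. Levels of Manba, Gla, Glb1, Gusb and Ctsk were lower. None of the 41 genes passed edgeR's quasi-likelihood test at an adjusted p of 0.05 (0% of the 15416 genes tested passed), and the lowest adjusted p was 0.0775, for Atp6v1f. At an unadjusted p under 0.05 there were 23 of the 41 (56.1%), 17 higher and 6 lower, while 33.2% of all genes reached that p (15.9% higher, 17.3% lower). DESeq2 called 9 of the 41, 8 higher (9.08% of all genes) and 1 lower (7.7%), and limma-voom called none (0% of all genes). Every knockout library lay above every control library for 20 of the 41 genes and below for 7, against 21.3% and 22.1% of all genes. Of the 41 genes 28 were higher and 13 lower at a median log2 fold change of 0.246, against a median of -0.0466 over all genes, of which 46.6% were higher. With upper quartile scaling the median of all genes moved to -0.177 and that of the 41 genes to 0.121, with 26 higher and 15 lower.

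These counts leaned on particular libraries. Without ZEB2 control 3, 6 of the 41 genes were at an unadjusted p under 0.05, namely Hexa, Gaa, Neu1, Atp6v0b and Atp6v1f (higher) and Manba (lower), while 16.2% of all genes reached that p. Without ZEB2 knockout 3 there were 8, the same genes with Cd63 and Atp6v0c, beside 17.6% of all genes. With the Y-linked level as a covariate there were 10, beside 21.2% of all genes. Hexa, Gaa, Neu1, Manba, Atp6v0b and Atp6v1f were among them each time. In each of these fits the share of the 41 genes lay near that of all genes, unlike in the main fit. No leave-out gave a member called at an adjusted p of 0.05.

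Cathepsins split in the ZEB2 line, where 3 of 7 were higher and 4 lower. Their median log2 fold change was -0.06. Ctsl (chr13:64359337-64370890), a cysteine protease that is a known atrophy gene of muscle, measured 390.0, 363 and 185 CPM in ZEB2 controls compared with 535, 533 and 846 CPM in ZEB2 knockouts. All 3 knockouts lay above the controls, with control 3 far below and knockout 3 far above the rest of its group. The log2 fold change was 1.03 (SE 0.44, adjusted p = 0.138 by edgeR). In the ZEB1 line Ctsl was 183 and 531 CPM in controls compared with 472, 204 and 336 CPM in knockouts, and the controls spanned the knockouts entirely.

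Ctsd (chr7:142375911-142388038) measured 686, 870.1 and 622 CPM in ZEB2 controls compared with 994, 996 and 1367 CPM in ZEB2 knockouts. The groups did not overlap, at a log2 fold change of 0.62 (SE 0.27, adjusted p = 0.138 by edgeR). ZEB1 controls held 529.8 and 865 CPM of Ctsd and ZEB1 knockouts 865, 492 and 985 CPM, with the groups mixed. Ctsz (chr2:174427493-174439039), a carboxypeptidase, measured 26, 28.3 and 21.9 CPM in ZEB2 controls compared with 29.3, 32.5 and 40.3 CPM in ZEB2 knockouts, again without overlap (log2 fold change 0.42, SE 0.16, adjusted p = 0.11). It measured 23.9 and 27.7 CPM in ZEB1 controls compared with 24.8, 21.2 and 28.1 CPM in ZEB1 knockouts. Ctsa, a carboxypeptidase that also stabilises Neu1 and Glb1, and Ctsb, a cysteine protease, had ZEB2 log2 fold changes of -0.06 and -0.13. The sign of Ctsb turned in 1 of the 6 omissions of a library.

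Ctsk and Ctss had the lowest log2 fold changes of the cathepsins in both lines. Ctsk (chr3:95499256-95509362), a collagen-degrading protease best known from osteoclasts and fibroblasts, measured 5.95 and 5.18 CPM in ZEB1 controls compared with 3.02, 4.41 and 2.38 CPM in ZEB1 knockouts. In ZEB2 controls it stood at 3.93, 4 and 4.36 CPM and in ZEB2 knockouts at 2.99, 3.01 and 1.63 CPM. Controls lay above knockouts without overlap in both lines, at log2 fold changes of -0.77 (SE 0.30, adjusted p = 1 by edgeR) and -0.68 (SE 0.28, adjusted p = 0.119). Ctss, a cathepsin of antigen-presenting cells, had log2 fold changes of -0.34 and -0.35 with overlapping groups. Markers of interstitial cells were also mostly lower in knockouts. Of 15 macrophage markers, 13 were lower in ZEB1 knockouts and 14 in ZEB2 knockouts, and their summed level ran from 196.4 to 222 CPM in ZEB1 controls, 136.4 to 208.5 in ZEB1 knockouts, 136.3 to 183.8 in ZEB2 controls and 111.4 to 123.3 in ZEB2 knockouts. Of 10 fibroblast markers, 10 and 9 were lower, with sums of 2624 to 2650, 1603 to 2264, 1920 to 2441 and 1683 to 1852 CPM in the same order of groups. Gsn and Dcn made up most of these sums, and both overlapped between the ZEB2 groups. Of the 10 fibroblast markers, 5 lay below the controls in every ZEB2 knockout, against 22.1% of all genes. Col3a1, for example, measured 106, 187 and 265 CPM in ZEB2 controls compared with 63.7, 100 and 18.7 CPM in ZEB2 knockouts. None of these markers was at 0 in all libraries, and their part in the levels of Ctsk and Ctss was not tested. Of the other cell-type markers tested, 8 of 9 endothelial, 7 of 7 tendon, 6 of 6 adipocyte, 6 of 6 Schwann cell, 6 of 6 erythroid, 5 of 5 satellite cell, 3 of 4 neutrophil and 5 of 12 myofibre genes were lower in ZEB2 knockouts. In bulk muscle, fewer cells of a type and less RNA per cell cannot be told apart.

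Hydrolases other than cathepsins were also divided, with 5 of 11 higher and 6 lower in ZEB2 knockouts. Their median was -0.04, near the -0.0466 of all genes. An unadjusted p under 0.05 was reached by 8 of the 11, 3 higher and 5 lower, against 15.9% and 17.3% of all genes. The higher ones were Gaa, Hexa and Neu1. Gaa (chr11:119267887-119285454), the acid glucosidase that degrades glycogen, measured 261, 322 and 181 CPM in ZEB2 controls compared with 474, 501 and 740.0 CPM in ZEB2 knockouts. No control reached a knockout, and the mean was 2.25-fold higher (log2 fold change 1.17, SE 0.35, adjusted p = 0.0847 by edgeR and 0.0139 by DESeq2). ZEB1 controls had 179.8 and 396 CPM of Gaa and ZEB1 knockouts 390.1, 204 and 381 CPM, within the range of their controls.

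Hexa (chr9:59539540-59565109), a subunit of hexosaminidase, measured 41.4, 37 and 32.1 CPM in ZEB2 controls compared with 55.9, 51.3 and 56.8 CPM in ZEB2 knockouts, and in the ZEB1 line 36.8 and 46.2 against 58.3, 36.8 and 46 CPM. Neu1 (chr17:34931253-34935953), which removes sialic acid, measured 16.3, 17.8 and 14.3 CPM in ZEB2 controls compared with 24.4, 21.6 and 27.1 CPM in ZEB2 knockouts, and in the ZEB1 line 15.2 and 18.2 against 26.4, 16.6 and 22.9 CPM. For both genes the ZEB2 groups were apart and the ZEB1 groups overlapped. The ZEB2 log2 fold changes were 0.57 for Hexa and 0.60 for Neu1 (SE 0.18 each), with edgeR adjusted p of 0.0855 and 0.083 and DESeq2 adjusted p of 0.0273 and 0.0256. Neu1 also had the largest ZEB1 log2 fold change of the class, 0.40 (SE 0.20, adjusted p = 1).

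Manba, Gla, Glb1 and Gusb, the 4 least abundant genes of the class per length, were lower in ZEB2 knockouts. Manba (chr3:135485611-135571404) measured 5.63, 3.93 and 5.71 CPM in ZEB2 controls compared with 3.4, 2.55 and 1.75 CPM in ZEB2 knockouts. Controls lay above knockouts throughout, with a mean 1.98-fold higher (log2 fold change of knockout against control -0.99, SE 0.30, adjusted p = 0.0841 by edgeR and 0.024 by DESeq2). ZEB1 levels of Manba were 6.48 and 3.88 CPM in controls compared with 3.64, 5.86 and 4.3 CPM in knockouts, which overlap. Gla, Glb1 (a galactosidase), Gusb (a glucuronidase) and Lgmn (legumain, which cleaves after asparagine) were below the controls in every ZEB2 knockout, at log2 fold changes of -0.81, -0.73, -0.59 and -0.37. Their edgeR adjusted p were 0.114, 0.11, 0.125 and 0.118, and DESeq2 called none of them. Their ZEB1 values were -0.17, -0.09, -0.19 and 0.11. Gla and Glb1 were low throughout, with means of 2.1 and 2.63 CPM in ZEB2 controls and 1.2 and 1.58 CPM in ZEB2 knockouts. The summed macrophage and fibroblast markers given above were lower in the same ZEB2 knockouts, and their part in these hydrolases was not tested. Man2b1, a mannosidase, Psap and Npc2, the soluble partner of Npc1 in cholesterol export, had ZEB2 log2 fold changes of 0.15, 0.24 and -0.04 and adjusted p of at least 0.208.

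Membrane proteins were higher in ZEB2 knockouts for 5 of 7 genes (median log2 fold change 0.246). Npc1 had the largest fold change of the 41 genes and the widest spread. It measured 237, 280.0 and 90.6 CPM in ZEB2 controls compared with 504, 552 and 895 CPM in ZEB2 knockouts. The groups were apart and the mean was 3.21-fold higher (log2 fold change 1.68, SE 0.68, adjusted p = 0.125 by edgeR). ZEB1 levels of Npc1 were 71.9 and 443 CPM in controls compared with 358, 97.4 and 262 CPM in knockouts. The ZEB1 controls alone differed 6.17-fold, and the log2 fold change there of -0.11 became 1.72 without ZEB1 control 3.

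Lamp2 (chrX:38401357-38456454), the other main membrane glycoprotein and a receptor of chaperone-mediated autophagy in one isoform, measured 175, 152 and 124 CPM in ZEB2 controls compared with 209, 192 and 250.1 CPM in ZEB2 knockouts. It measured 118 and 182 CPM in ZEB1 controls compared with 166, 101 and 139.8 CPM in ZEB1 knockouts. The ZEB2 groups did not overlap (log2 fold change 0.53, SE 0.22, adjusted p = 0.13 by edgeR) and the ZEB1 groups did (-0.14). Isoforms cannot be read from gene counts. Mcoln1 (chr8:3500457-3515232), the calcium channel through which lysosomes activate TFEB, measured 25.5, 21.8 and 19.4 CPM in ZEB2 controls compared with 27.2, 26.2 and 27.8 CPM in ZEB2 knockouts. In the ZEB1 line it was 23.9 and 24.2 against 27.1, 27.3 and 23.1 CPM. The ZEB2 groups were narrowly apart (log2 fold change 0.28, SE 0.13, adjusted p = 0.149).

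Lamp1 (chr8:13159161-13175338) was the most even of the 41 genes, and knockouts lay above controls in both lines. It stood at 382 and 384 CPM in ZEB1 controls, 462, 416 and 437 CPM in ZEB1 knockouts, 359.9, 384 and 354 CPM in ZEB2 controls and 416, 412 and 452 CPM in ZEB2 knockouts. The log2 fold changes were 0.20 (SE 0.12, adjusted p = 1) and 0.22 (SE 0.11, adjusted p = 0.183 by edgeR), small beside those of Npc1 and Ctsl. Laptm4a (chr12:8921664-8938742), a small membrane protein of late endosomes and lysosomes, went the other way, with 181, 196 and 213 CPM in ZEB2 controls and 165, 170.1 and 148 CPM in ZEB2 knockouts (log2 fold change -0.29, SE 0.14, adjusted p = 0.163). It measured 229 and 189 CPM in ZEB1 controls compared with 177, 213 and 182 CPM in ZEB1 knockouts. Cd63, a tetraspanin of late endosomes, had log2 fold changes of 0.30 in the ZEB1 line and 0.25 in the ZEB2 line, and Scarb2, which delivers glucocerebrosidase to lysosomes, 0.14 and -0.01.

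Proton pump genes were nearly all higher, with 13 of 14 higher in ZEB2 knockouts and a median log2 fold change of 0.378. The 5 genes of the membrane sector V0 were all higher (median 0.456), as were the 8 of the catalytic sector V1 (median 0.342), under TMM scaling, although Atp6v1g1 turned from 0.11 to -0.01 with upper quartile scaling. The exception was Atp6ap1, an accessory subunit, at -0.04. For 8 of the 14 every knockout exceeded every control, against 21.3% of all genes. Of the V0 genes, 5 of 5 were at an unadjusted p under 0.05, and of the V1 genes 3 of 8, against 15.9% of all genes at that p and higher. DESeq2 called 4 V0 genes and 1 V1 gene higher, against 9.08% of all genes. Within their groups, ZEB2 control 3 was the lowest control for 10 of the 14 pump genes (32.2% of all genes) and ZEB2 knockout 3 the highest knockout for 10 of the 14 (42.1% of all genes).

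Atp6v1f (chr6:29467718-29470512), a subunit of the central rotor of V1, had the smallest p of the 41 genes. It measured 31.9, 36.3 and 32.8 CPM in ZEB2 controls compared with 47.8, 52.4 and 47.7 CPM in ZEB2 knockouts. The gap between the groups was wider than either group (log2 fold change 0.55, SE 0.12, adjusted p = 0.0775 by edgeR and 0.00105 by DESeq2). In ZEB1 controls it was 34.8 and 38.1 CPM and in ZEB1 knockouts 43.6, 40.6 and 38 CPM, touching at the edge. Atp6v0b (chr4:117884326-117887333), of the proton-carrying ring, measured 43.1, 47.1 and 47.9 CPM in ZEB2 controls compared with 57.4, 60 and 62.2 CPM in ZEB2 knockouts. Its ZEB1 levels were 49.2 and 49.1 CPM in controls compared with 61.2, 49.7 and 54.9 CPM in knockouts. Both lines were without overlap, the ZEB1 line only just, at log2 fold changes of 0.17 and 0.38 (adjusted p = 1 and 0.0857 by edgeR, ZEB2 0.0153 by DESeq2).

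Atp6v0c (chr17:24163866-24169702), the main ring subunit, measured 99.7, 106 and 95.7 CPM in ZEB2 controls compared with 124, 129 and 138 CPM in ZEB2 knockouts. Atp6v0e (chr17:26663231-26699647), a small V0 subunit, measured 24.1, 29 and 17.2 CPM in ZEB2 controls compared with 37.2, 40.3 and 55.3 CPM in ZEB2 knockouts. Both were apart, with log2 fold changes of 0.38 (SE 0.13) and 0.92 (SE 0.32) and an edgeR adjusted p of 0.0965 for each. In the ZEB1 line Atp6v0c was 77.6 and 95 CPM in controls compared with 97.2, 89.7 and 109.5 CPM in knockouts, and Atp6v0e 13 and 27.5 against 30.6, 16.3 and 22.6 CPM. These overlapped. Atp6v1h had the highest ZEB2 log2 fold change of the pump, 1.00 (SE 0.45, adjusted p = 0.151), with 28.9, 55.4 and 23.4 CPM in controls compared with 54.8, 64.1 and 97 CPM in knockouts. Here control 2 lay above knockout 1.

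Among the remaining pump genes, ZEB2 log2 fold changes were 0.64 for Atp6v0a1 (the V0 subunit that directs the pump to its membrane), 0.46 for Atp6v0d1 (the link of V0 to the rotor), 0.43 for Atp6v1b2 and 0.17 for Atp6v1a (the nucleotide-binding subunits), and 0.11 to 0.35 for Atp6v1c1, Atp6v1d, Atp6v1e1 and Atp6v1g1. Of these, Atp6v0a1 was called by DESeq2 at an adjusted p of 0.0435. It was 107 CPM in ZEB2 knockout 3 but 57.2 CPM in knockout 1, below the 61.5 CPM of control 2.

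**Figure D3:**
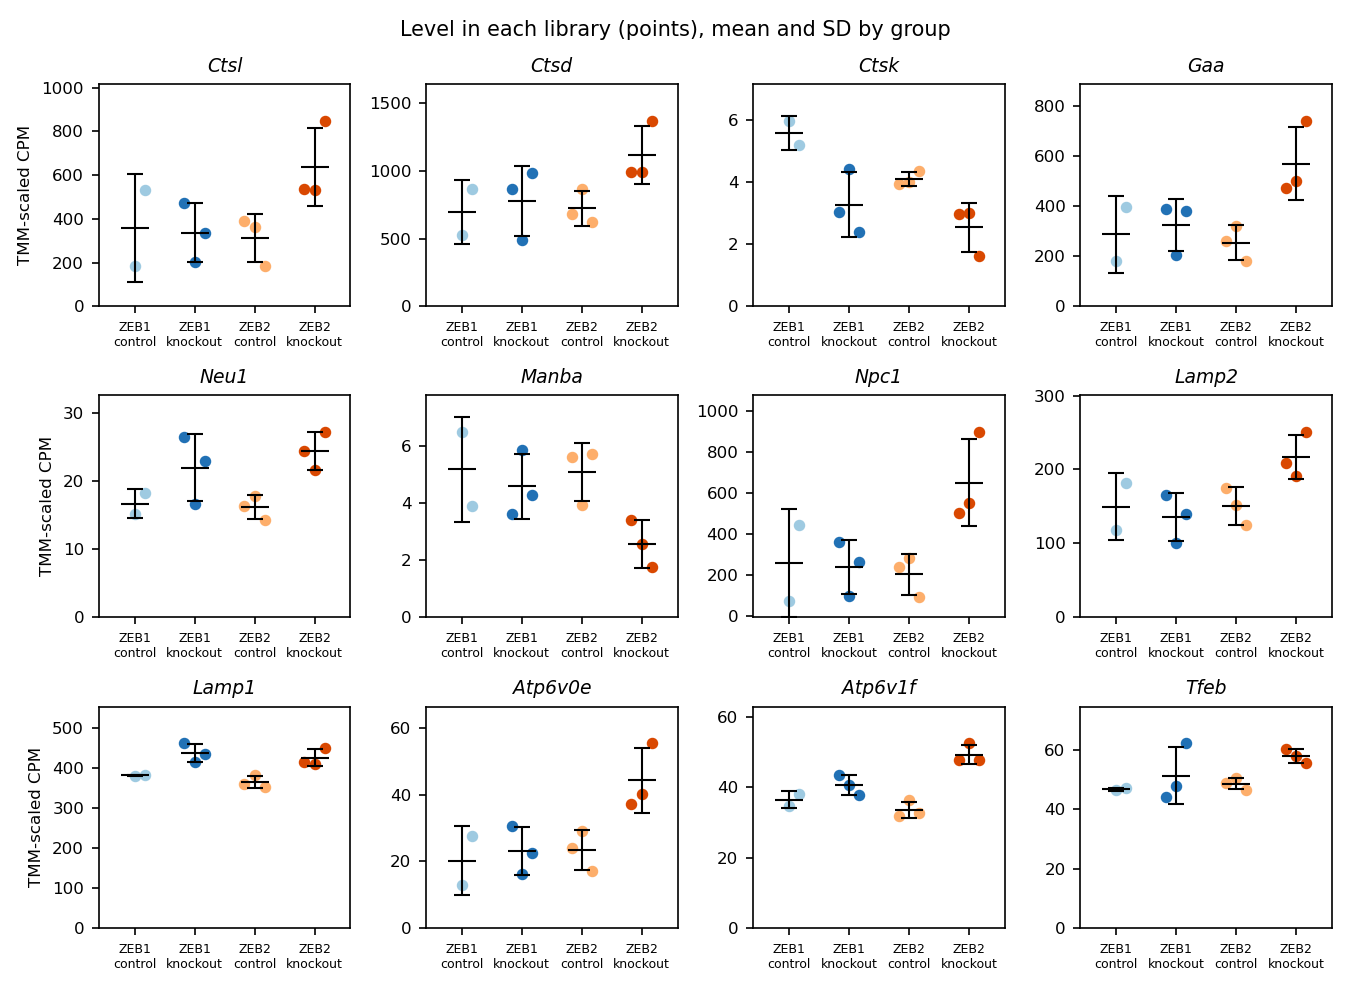
TMM-scaled CPM of 12 genes in each library (points), with the mean and 1 SD of each group as bars (n = 2 for ZEB1 controls, 3 for the others). ZEB2 knockouts lie above ZEB2 controls for Ctsl, Ctsd, Gaa, Neu1, Npc1, Lamp2, Lamp1, Atp6v0e, Atp6v1f and Tfeb and below them for Ctsk and Manba.

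Tfeb (chr17:47737030-47792419) measured 48.7, 50.3 and 46.5 CPM in ZEB2 controls compared with 60, 57.9 and 55.6 CPM in ZEB2 knockouts, without overlap (log2 fold change 0.25, SE 0.14, adjusted p = 0.212 by edgeR). Its ZEB1 levels were 46.4 and 47 CPM in controls compared with 43.9, 47.8 and 62 CPM in knockouts, and its log2 fold change of 0.14 became -0.03 without knockout 3. Tfe3 (chrX:7762560-7775202) was 10.8, 11.4 and 9.99 CPM in ZEB2 controls, 10.9, 11.7 and 11.7 CPM in ZEB2 knockouts, 12.9 and 12.4 CPM in ZEB1 controls and 11.6, 12.4 and 15.8 CPM in ZEB1 knockouts. Groups overlapped in both lines, and its ZEB2 log2 fold change of 0.10 turned to -0.03 with upper quartile scaling. Both proteins are controlled mainly by their place in the cell, which RNA does not measure.

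In the ZEB1 line knockout and control libraries overlapped for 36 of the 41 genes. None of the 41 passed edgeR's test (0% of all genes passed), 2 had an unadjusted p under 0.05 (Ctsk lower and Atp6v1b2 higher, 4.88% against 3.24% of all genes), and DESeq2 and limma-voom called none of them (0.136% and 0.00649% of all genes). The median log2 fold change was 0.0653, with 25 higher and 16 lower, against 0.00695 over all genes, of which 51.2% were higher. Knockouts lay above controls for 4 genes, Lamp1, Cd63, Atp6v0b and Atp6v1d, and below for Ctsk, against 7.19% and 6.69% of all genes. Of the pump genes, 12 of 14 were higher, with a median of 0.15. Several of these signs hung on 1 library. With single libraries left out, Atp6v0a1, Atp6v0e, Atp6v1c1, Atp6v1e1 and Atp6ap1 fell as low as -0.0988, -0.267, -0.069, -0.0511 and -0.0992. The lower genes, Atp6v1g1 and Atp6v1h, rose as high as 0.0207 and 0.48. Atp6v1b2 (chr8:69088646-69113711) measured 44.5 and 53 CPM in ZEB1 controls compared with 104, 44.8 and 80.4 CPM in ZEB1 knockouts. Its log2 fold change of 0.65 (SE 0.28, unadjusted p = 0.0398, adjusted p = 1 by edgeR) did not pass, and knockouts 1 and 3 lay above both controls while knockout 2 lay between them. Without ZEB1 knockout 2, 5 of the 41 genes had an unadjusted p under 0.05, Ctsk lower and Neu1, Cd63, Atp6v0d1 and Atp6v1b2 higher, beside 8.03% of all genes. With ZEB1 knockout 1, ZEB1 knockout 3 or ZEB1 control 2 left out singly there were 0, beside 2.5%, 2.35% and 3.78% of all genes.

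**Figure D4:**
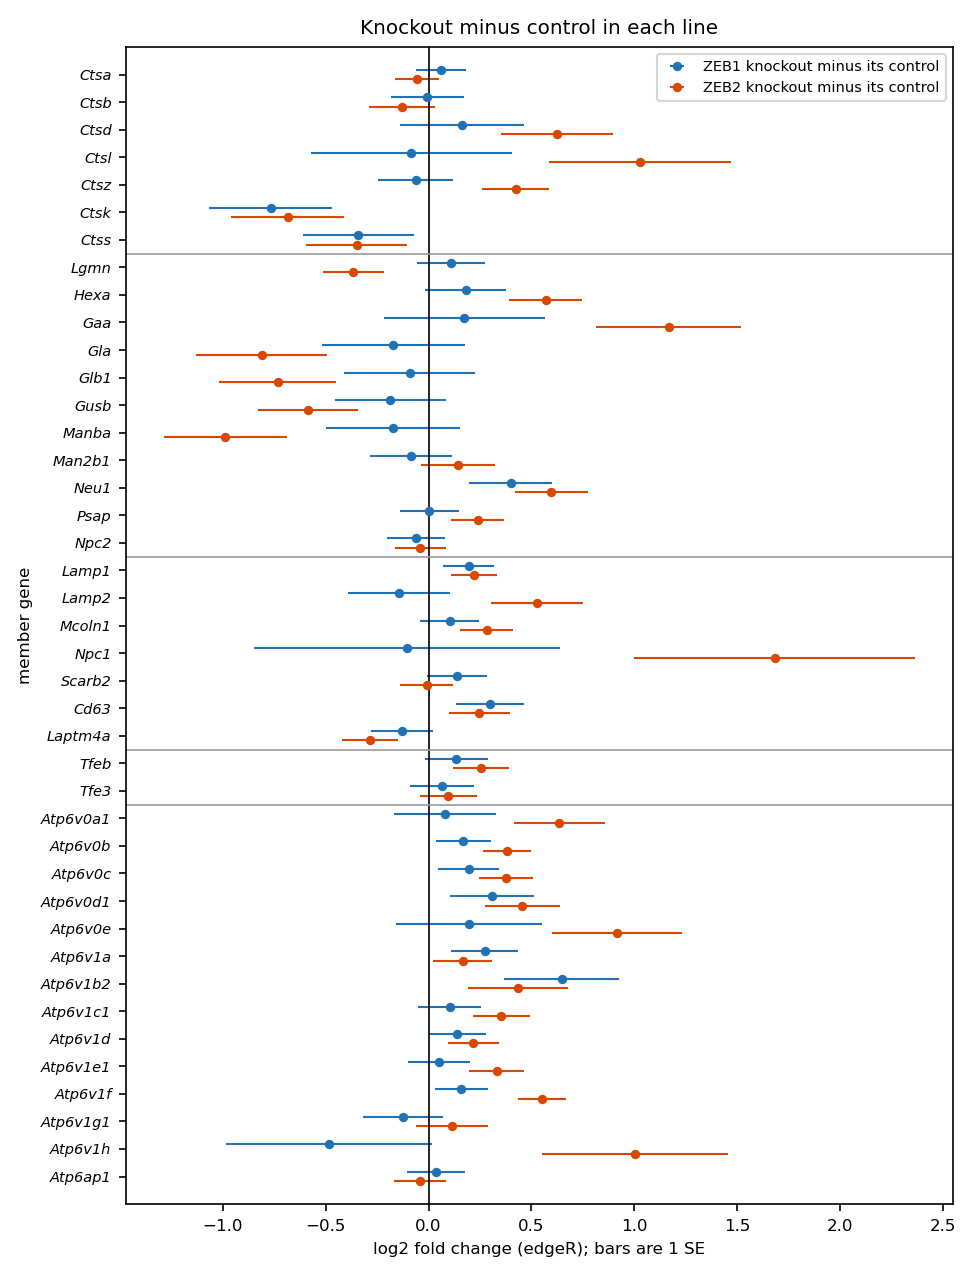
Log2 fold change of knockout against control for each of the 41 genes in the ZEB1 line (blue) and the ZEB2 line (orange), with bars of 1 SE from edgeR, in the order of the classes. The ZEB2 points spread further from 0, pump genes lie mostly to the right of 0, and the ZEB1 bars of Npc1, Atp6v1h and Ctsl are the longest of that line.

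The difference between both knockout effects was tested directly. None of the 41 genes passed (0% of all genes passed by edgeR), the lowest adjusted p was 0.516, and Atp6v1f alone had an unadjusted p under 0.05 (9.26% of all genes did), with an effect larger by 0.39 on the log2 scale (SE 0.17) in the ZEB2 line. DESeq2 and limma-voom called none of the 41 (0.11% and 0% of all genes). The largest differences were 1.79 (SE 0.99) for Npc1, 1.49 (SE 0.67) for Atp6v1h, 1.11 (SE 0.65) for Ctsl and 0.99 (SE 0.52) for Gaa, so an effect in the ZEB2 line is not shown to differ from that in the ZEB1 line for any of them. The controls of the lines, compared in the same way, had none of the 41 genes past edgeR's threshold (0.0195% of all genes), 1 at an unadjusted p under 0.05 (Ctss, -0.61 in ZEB2 controls against ZEB1 controls, beside 3.32% of all genes), and none called by DESeq2 or limma-voom (0.104% and 0.013% of all genes). Their median log2 fold change was -0.05.

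Another 102 lysosomal genes were listed by role, and 94 of them were tested. In ZEB2 knockouts 49 were higher and 45 lower, and the median was 0.0244. None passed edgeR's test (0% of all genes), 34 had an unadjusted p under 0.05 (36.2%, against 33.2% of all genes), DESeq2 called 9 higher and 10 lower (9.08% and 7.7% of all genes), and limma-voom called none. The medians were 0.31 over 14 genes of nutrient sensing at the lysosome, 0.0883 over 12 other pump and assembly genes, 0.0824 over 19 other membrane proteins, -0.04 over 10 sorting genes, -0.153 over 8 other proteases and -0.224 over 31 other hydrolases.

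Other hydrolases included the lowest value of these lists. Acp5, a tartrate-resistant phosphatase of osteoclasts and macrophages, measured 1.92, 1.06 and 1.97 CPM in ZEB2 controls compared with 0.657, 0.529 and 0.31 CPM in ZEB2 knockouts (log2 fold change -1.72, SE 0.36, adjusted p = 0.0775 by edgeR). Ppt1, which removes palmitate from proteins, measured 10.2, 10.4 and 10.5 CPM in ZEB2 controls compared with 5.94, 5.94 and 4.79 CPM in ZEB2 knockouts (-0.90, SE 0.20, adjusted p = 0.0775). Neither gene's groups overlapped. Ctsc and Ctsh, cathepsins of immune cells among other cells, had log2 fold changes of -0.89 and -0.62 (adjusted p = 0.089 and 0.0848). Of the macrophage markers given above, 14 were lower and 1, Cd68, was higher in ZEB2 knockouts (log2 fold change 0.16). Their part in the levels of Ctsc and Ctsh was not tested.

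Of the 14 nutrient-sensing genes tested, 11 were higher and 3 lower in ZEB2 knockouts. By edgeR, 5 were higher and 2 lower at an unadjusted p under 0.05, against 15.9% and 17.3% of all genes. Flcn, folliculin, which acts on the Rag GTPases in the control of TFEB and TFE3, measured 94, 78.6 and 57.1 CPM in ZEB2 controls compared with 152, 144 and 181 CPM in ZEB2 knockouts (log2 fold change 1.06, SE 0.32, adjusted p = 0.0842 by edgeR). Rragd, one of those GTPases, measured 118, 138 and 165 CPM in ZEB2 controls compared with 95.3, 87.4 and 57.2 CPM in ZEB2 knockouts (-0.81, SE 0.23, adjusted p = 0.0807). Both were without overlap, and in opposite directions. In the remaining lists Sidt2 (an RNA transporter) had a log2 fold change of 1.17, Laptm4b (a relative of Laptm4a) -0.65, the pump genes Atp6ap2 0.65 and Rnasek 0.37, and the mannose 6-phosphate receptors M6pr 0.40 and Igf2r -0.41, with edgeR adjusted p between 0.0793 and 0.127.

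**Figure D5:**
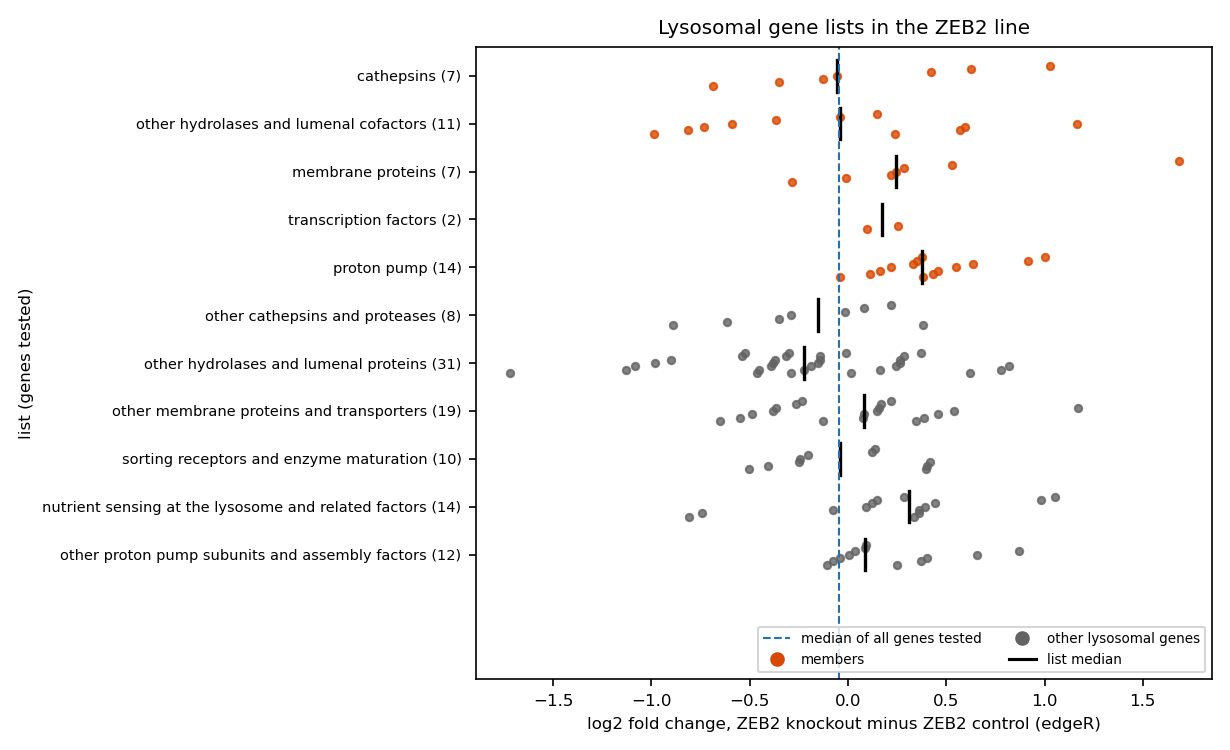
Log2 fold change of ZEB2 knockout against ZEB2 control for single genes (points) in the 5 classes of the 41 genes (orange) and 6 lists of other lysosomal genes (grey), with list medians as black bars and the median of all genes tested as a dashed line at -0.0466. The medians of the 14 proton pump genes (0.378) and the nutrient-sensing genes (0.31) lie to the right of the dashed line and that of the 31 other hydrolases (-0.224) to its left, with single genes of the nutrient-sensing and other hydrolase lists on both sides.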

How the data were processed

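The table the authors deposited holds estimated counts per gene as whole numbers without scaling. STAR, RSEM, DESeq2 and the build GRCm38 are named per the submitters' processing notes, with no versions. Libraries were made with a stranded mRNA kit, per the labels' protocols. Neither the annotation release nor the strand setting is given in the sources used here, so counts of overlapping or closely related genes are uncertain. Members, gene lists and tests were chosen with earlier results of these data known.

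R 4.3.3 and edgeR 4.0.16 were used. filterByExpr (minimum count 10, minimum total 15) kept 15416 of 55385 genes, with 99.96% of counts, and libraries were scaled by TMM. One robust quasi-likelihood fit over 4 group means in 11 libraries gave each contrast, adjusted by Benjamini-Hochberg over all genes tested. Each SE is the size of the log2 fold change over the root of its F value, and the biological coefficient of variation came to 0.24. No replicate pair agreed within counting noise. Alternatives were DESeq2 1.42.0, voom in limma 3.58.1, other scalings and filters, only the groups compared, a replicate block, the Y-linked level as a covariate and omission of each library. Values in every library are given for up to 4 genes per class by smallest p over both knockout contrasts and for Tfeb, Tfe3, Mcoln1, Ctsl, Lamp1 and Lamp2. Those of Atp6v1h, Atp6v1b2 and 4 other lysosomal genes, in full or for one line, were added after their values were seen. The edgeR fit was tested on simulated data.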

Additional observations from a re-analysis of the deposited data

How the results depend on the processing

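No leave-out of a library gave a member past the adjusted threshold in any comparison. Counts at an unadjusted p were added after seeing the data. In the ZEB2 line, 9 members were called by DESeq2 and 8 when only the ZEB2 groups were fitted (Hexa, Gaa, Neu1, Npc1, Atp6v0d1, Atp6v0e, Atp6v1f higher, Manba lower), against 0 by edgeR over all groups. Over all genes the calls were 2587 by DESeq2, 2077 with only the groups compared and 348 with no filter on low counts. Upper quartile scaling moved the ZEB2 median to 0.121, that of the difference between effects to 0.0491, and Tfe3 to -0.0326. With the Y-linked level as a covariate, 10 members had an unadjusted p under 0.05, and with single libraries left out 6 to 22. With all libraries and no covariate, 33.2% of all genes reached that p in the ZEB2 line. That share also fell in the fits described above. In the ZEB1 line the count of members at that p was 1 by limma-voom (3.27% of all genes) and 1 with only the groups compared (1.68%). It was 0 with a mean of at least 5 CPM (2.65%). With single libraries left out it was 0 to 5, and the shares for the lowest and highest counts are given above. Over all genes 21 were called there by DESeq2, 1 by limma-voom and 6 with no filter. ZEB1 log2 fold changes turned sign for Ctsl and Npc1 by limma-voom (0.0296 and 0.229) and with the Y-linked covariate (0.236 and 0.596). With single libraries left out they ran from -0.68 to 0.868 for Ctsl, -0.915 to 1.72 for Npc1, -0.172 to 0.545 for Ctsd, -0.183 to 0.036 for Ctsz, -0.308 to 0.84 for Gaa, -0.018 to 0.344 for Hexa, -0.499 to 0.228 for Manba, -0.446 to 0.195 for Lamp2, -0.267 to 0.822 for Atp6v0e, -0.0315 to 0.22 for Tfeb and -0.0847 to 0.139 for Tfe3. The median between controls ran from -0.145 (without ZEB1 control 2) to 0.00691, and all genes called there numbered 3 by edgeR, 16 by DESeq2, 5 with RLE scaling, 7 with no filter, 1 with a mean of at least 5 CPM and 1 with a replicate block. For the difference between effects they numbered 17 by DESeq2 and 2 with no filter. The causes were not tested. The design has 2 or 3 pools per group, and the 2 ZEB1 controls differed up to 6.17-fold, in Npc1.

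The replicate numbers have no stated meaning and were not taken to pair the libraries. Deviations of same-numbered libraries correlated at 0.465 and 0.174 in the ZEB1 line and at 0.195, -0.0274 and -0.313 in the ZEB2 line. With 2 ZEB1 controls, their deviations mirror each other, so the ZEB1 correlations cannot decide whether libraries were paired. The replicate numbers used are those of the sample titles. The source names number the 2 ZEB1 controls 1 and 2, and by those numbers the ZEB1 correlations were -0.308 and -0.465. The block below follows the titles. With a replicate block no member was called, and the medians were 0.0525 (ZEB1) and 0.244 (ZEB2). At an unadjusted p under 0.05 there were 1 member in the ZEB1 line (2.8% of all genes) and 21 in the ZEB2 line. In the ZEB2 line without the block, 33.2% of all genes reached that p.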
